A study of Hordeum vulgare with 10 samples.

Results

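PHO1 (MLOC_12153), SPX-MFS (MLOC_57566) and NLA (MLOC_52462) are the barley genes of the study's phosphate (Pi) list whose proteins carry an SPX domain in an exporter, a transporter and a ubiquitin ligase. Each was taken by its identifier from the root and the shoot table of group means, and the 3 genes were found in both, among 24313 genes in all. The question addressed here is how their transcripts differed between heated and control barley, and whether roots and shoots differed in that response.

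In plants, the SPX domain binds inositol pyrophosphates, whose level follows the Pi status of the cell, and it thereby links Pi status to transport and signalling. PHO1 exports Pi into the xylem and so loads it from root to shoot, as known from Arabidopsis and rice. SPX-MFS proteins join the SPX domain to a major facilitator superfamily transporter and carry Pi across the vacuolar membrane, as known from the same species. NLA is a RING-type E3 ubiquitin ligase that, in Arabidopsis, marks Pi transporters of the PHT1 family at the plasma membrane for breakdown.

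The plants were 2-week-old spring barley of cultivar Rolap. Control plants were kept at 22 °C, and heated plants at 35.5 °C, with harvest after 1 h. Control and heated shoots had 3 libraries each, and control and heated roots 2 each. The libraries were strand-specific and were made from DNase-treated RNA selected with oligo(dT), so that the values are of polyadenylated RNA from whole roots and shoots. The sources do not say whether reads were counted by strand, so that reads of a gene and of an antisense transcript cannot be told apart. In such samples, fewer cells of a type and less RNA per cell cannot be told apart.

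The deposited tables hold group means of normalized counts, and the reads of every library were worked back from them as whole numbers. The libraries carry no replicate letter and are given in falling order of size factor within a group. Between 16026856 and 16830180 reads lay in genes of a root library, and between 10497686 and 11416140 in the genes of a shoot library whose means could be split. Hsp90.1, a cytosolic chaperone induced by heat, had 252 and 139 reads in control roots, against 158900 and 172563 reads after heat. It had 70, 77 and 24 reads in control shoots and 26786, 32804 and 23846 reads in heated shoots, so that both tissues followed their temperature labels. The root-expressed Pi transporter PHT1;1, which has close paralogs whose reads may be counted with it, had 77 to 989 reads in the root libraries. It had 0 reads in each of the 6 shoot libraries, which allows up to 3 reads per library.

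In roots, heat was accompanied by lower PHO1 and SPX-MFS transcript levels and by a higher NLA level. PHO1 had 581 and 542 reads in the libraries from control plants, against 87 and 90 reads in those from heated plants. As normalized counts, which divide the reads by the size factor of the library, these were 476 and 467 in control roots, against 102 and 108 after heat. Both heated libraries lay far below both control libraries, and the libraries of a group lay close together. PHO1 fell 4.52-fold, a log2 difference of -2.17 (SE 0.14, 95% confidence interval -2.52 to -1.83, adjusted p = 3.8e-05 in the edgeR quasi-likelihood test with Benjamini-Hochberg adjustment over all genes).

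SPX-MFS, the SPX-domain transporter, had 83 and 88 reads in control roots, against 16 and 14 reads after heat. The normalized counts were 67.9 and 75.9 without heat and 18.7 and 16.7 with it. The groups did not overlap. SPX-MFS fell 4.05-fold, with a log2 difference of -2.02 (SE 0.27, 95% confidence interval -2.65 to -1.39, edgeR adjusted p = 0.00099). Its interval is wider than that of PHO1, and only 30 reads in all stand behind the heated level. The SE of 0.27 is below counting error alone, so this interval is too narrow. With DESeq2 the log2 difference of SPX-MFS was -2.01 (SE 0.51, adjusted p = 0.00043).

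NLA, the ubiquitin ligase, moved the other way. It had 78 and 79 reads in control roots, against 171 and 142 reads after heat. The normalized counts were 63.8 and 68.1 without heat and 200.3 and 169.7 with it, so that both heated libraries lay above both control libraries. NLA rose 2.79-fold, with a log2 difference of 1.48 (SE 0.19, 95% confidence interval 1.03 to 1.93, edgeR adjusted p = 0.00085).

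All 3 genes therefore passed the edgeR threshold of 0.05 in roots, 2 lower and 1 higher. Of all 18453 root genes tested, 43.9% passed it, 22.4% lower and 21.5% higher, so that a change in roots was common. In size, 400 genes fell more than PHO1, 492 fell more than SPX-MFS, and 1167 rose more than NLA. The median log2 difference over all root genes was -0.0035. When libraries were scaled to total reads instead of by TMM, this median was -0.48, and the calls moved from 3972 higher and 4132 lower genes to 1916 higher and 9071 lower genes. The 3 genes kept their direction and their call under that scaling, with log2 differences of -2.65 for PHO1, -2.49 for SPX-MFS and 1.01 for NLA.

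**Figure D1:**
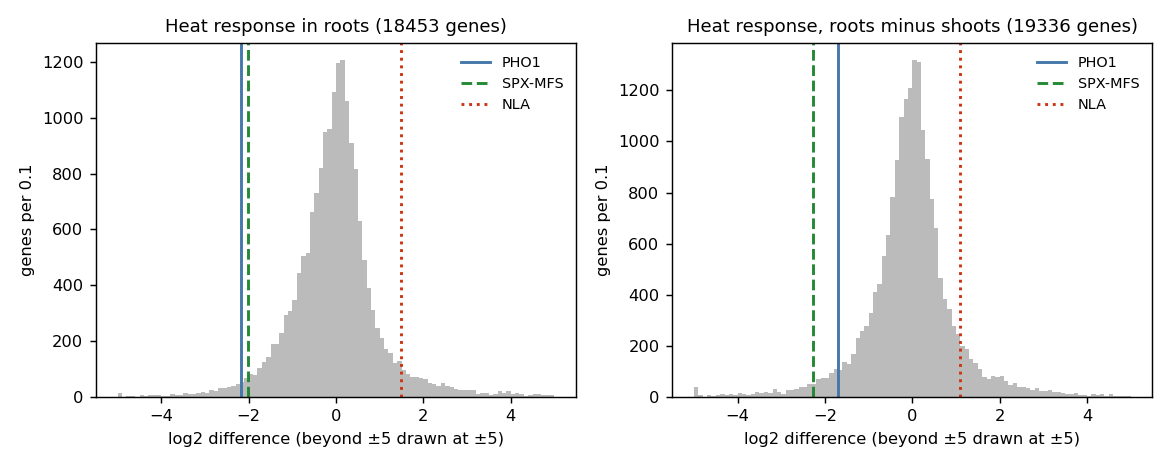
Histograms of the log2 difference of heat against control in roots (left, 18453 genes) and of its difference between roots and shoots (right, 19336 genes), with vertical lines for PHO1 (solid), SPX-MFS (dashed) and NLA (dotted). In roots the lines stand at -2.17, -2.02 and 1.48, in the left and right flanks of the distribution.

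In shoots, neither SPX-MFS nor NLA passed the threshold and PHO1 was below the filter on low counts, while 38.5% of the 16324 shoot genes tested did, 19.0% higher and 19.5% lower. SPX-MFS had 339, 462 and 325 reads in control shoots and 372, 380 and 344 reads in heated shoots. The normalized counts were 288, 420 and 320 in control shoots and 382, 410 and 395 in heated shoots. The second control library was the highest of all 6, so that the groups overlapped. The log2 difference was 0.21 (95% confidence interval -0.08 to 0.50, edgeR adjusted p = 0.23), an interval that includes both no change and a rise. Without the second control library the difference was 0.38 with an edgeR adjusted p of 0.023. The lack of a call with all 6 libraries thus depends on 1 library.

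NLA had 65, 64 and 50 reads in control shoots and 78, 62 and 52 reads in heated shoots. The normalized counts were 55.2, 58.2 and 49.2 in control shoots and 80.0, 66.8 and 59.7 in heated shoots. All 3 heated libraries lay above the highest control library, by a narrow margin for the lowest of them. The log2 difference of 0.35 (95% confidence interval -0.04 to 0.74, edgeR adjusted p = 0.15) did not pass the threshold. It was 0.22 without the first heated library and 0.18 with scaling to total reads.

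PHO1 had few reads in shoots. It had 14, 8 and 12 reads in control shoots and 9, 6 and 5 reads in heated shoots, too few for the edgeR filter on low counts. The normalized counts were 11.9, 7.28 and 11.8 in control shoots and 9.24, 6.47 and 5.74 in heated shoots, and the groups overlapped. Over the pooled 34 control and 20 heated reads, the ratio of heat to control was 0.700, with an exact 95% interval of 0.382 to 1.25 that covers counting error only. In a fit of all 10 libraries, the log2 difference was -0.51 (SE 0.34, edgeR adjusted p = 0.34). This SE is below counting error alone at these reads and is thus too small. Without the filter, the fit of shoots alone also gave -0.51, with an SE of 0.46 (edgeR adjusted p = 0.45). A fall as large as that in roots lies outside the exact interval of the pooled reads. That interval leaves out the spread between libraries, so it cannot by itself exclude such a fall. A smaller fall or a slight rise was not detectable at this depth.

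The responses of all 3 genes differed between the tissues when the difference itself was tested in 1 fit over the 10 libraries. Of the 19336 genes of that fit, 18.0% passed the threshold, 9.24% with a higher and 8.72% with a lower response in roots. SPX-MFS had the widest gap, a root response lower than the shoot response by -2.27 on the log2 scale (SE 0.30, 95% confidence interval -2.91 to -1.62, edgeR adjusted p = 0.00016). For PHO1 the gap was -1.71 (SE 0.40, 95% confidence interval -2.57 to -0.85, edgeR adjusted p = 0.0089). This SE is also below counting error alone, so the interval is too narrow. With DESeq2 the PHO1 gap was -1.70 (SE 0.51, adjusted p = 0.0074). Its shoot side rests on 5 to 14 reads per library, which were below the filter on low counts in the fit of shoots alone. For NLA the root response was the higher by 1.09 (SE 0.26, 95% confidence interval 0.52 to 1.65, edgeR adjusted p = 0.011). The calls for PHO1 and NLA were less secure than that for SPX-MFS. Without the first heated shoot library, the PHO1 gap was -1.47 (edgeR adjusted p = 0.056). The NLA gap was 0.96 (edgeR adjusted p = 0.058) without the first heated root library, and 0.84 (edgeR adjusted p = 0.051) with scaling to total reads.

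**Figure D2:**
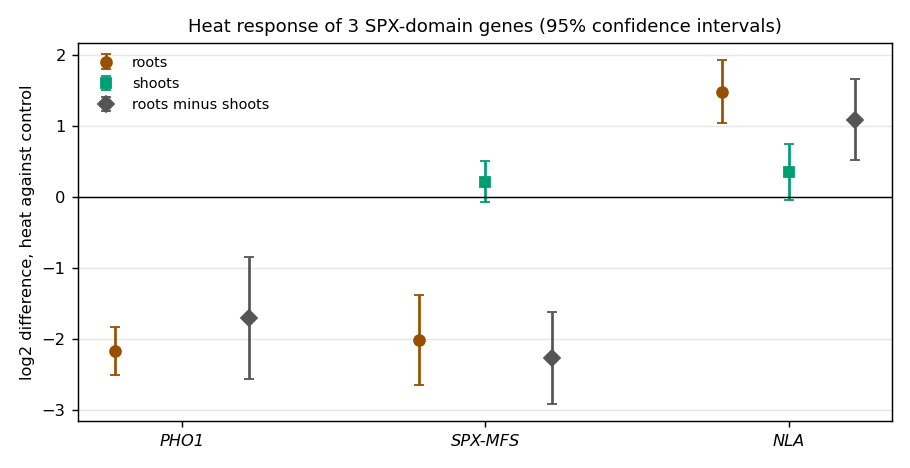
Log2 difference of heat against control with 95% confidence intervals for the 3 genes in roots (circles), in shoots (squares) and as roots minus shoots (diamonds), from edgeR. PHO1 has no shoot point because its shoot counts were below the edgeR filter, the root intervals of all 3 genes exclude 0, and the shoot intervals of SPX-MFS and NLA include 0.

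The genes also differed in the tissue where most of their reads were found. These comparisons set both tables on 1 scale, although the authors normalized roots and shoots apart, and tissue cannot be told apart from anything else that set the root and shoot libraries apart. Levels are given as CPM, the reads of a gene relative to the TMM-scaled size of its library, on 1 scale for the 10 libraries. PHO1 stood at a CPM of 22.3 ± 0.217 (SD, n = 2) in control roots and 4.77 ± 0.189 (SD, n = 2) in heated roots. Its shoot levels were 1.17 ± 0.298 (SD, n = 3) without heat and 0.810 ± 0.209 (SD, n = 3) with it. PHO1 was thus a root transcript at both temperatures, 18.9-fold higher in roots than shoots of control plants (log2 difference 4.24, SE 0.21, edgeR adjusted p = 1.2e-10) and 5.80-fold higher in heated plants (log2 difference 2.53, SE 0.26, edgeR adjusted p = 6.7e-07). With DESeq2 the SE were larger, 0.32 in control and 0.39 in heated plants. Of all 19336 genes, 74.3% passed the threshold between control tissues, 38.9% with more in roots and 35.4% with more in shoots. Between heated tissues 76.1% passed, 39.9% with more in roots and 36.2% with more in shoots.

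SPX-MFS showed the opposite tissue pattern. It stood at a CPM of 3.40 ± 0.274 (SD, n = 2) in control roots and 0.808 ± 0.0636 (SD, n = 2) in heated roots. Its shoot levels were 38.8 ± 7.83 (SD, n = 3) without heat and 44.8 ± 1.57 (SD, n = 3) with it. It was 11.4-fold higher in shoots than roots of control plants (log2 difference, roots minus shoots, -3.51, SE 0.17, edgeR adjusted p = 1.4e-10). In heated plants it was 54.8-fold higher in shoots (log2 difference -5.78, SE 0.22, edgeR adjusted p = 9.3e-12). With DESeq2 the SE of the difference in heated plants was 0.31.

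NLA was the most even of the 3 genes across the tissues. It stood at a CPM of 3.12 ± 0.151 (SD, n = 2) in control roots, 6.13 ± 0.521 (SD, n = 3) in control shoots, 7.80 ± 1.17 (SD, n = 3) in heated shoots and 8.43 ± 0.973 (SD, n = 2) in heated roots. Control roots lay below control shoots, 1.97-fold by TMM scaling (log2 difference -0.98, SE 0.20, edgeR adjusted p = 0.00039). Heated roots and heated shoots differed by 0.11 (95% confidence interval -0.28 to 0.50, edgeR adjusted p = 0.60). Both tissue differences of NLA depended on the scaling. With scaling to total reads in the genes tested, the difference in control plants was -0.18 (edgeR adjusted p = 0.42). That in heated plants was 0.65 (edgeR adjusted p = 0.0062). The median over all genes moved from 0.09 to 0.89 in control and to 0.64 in heated plants. These totals left out the means that were not split. Those held 30.0% of gene reads in control shoots and 31.5% in heated shoots, but 0% in roots. How far this moved the differences was not tested. PHO1 and SPX-MFS kept direction and call in both tissue comparisons under that scaling.

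In order of level, PHO1 ran from control roots through heated roots and control shoots to heated shoots. Heated roots lay above control shoots by 2.02 on the log2 scale (SE 0.24, edgeR adjusted p = 2.0e-06), in a comparison chosen after the levels were seen in which 77.2% of all genes passed, 40.3% with more in heated roots and 36.9% with less. The last step, between the shoot groups, did not pass the threshold. SPX-MFS ran from both shoot groups, whose difference did not pass the threshold with all 6 libraries, through control roots to heated roots. By TMM scaling, NLA ran from heated roots through heated shoots and control shoots to control roots, and only the last of these steps passed the threshold. In the comparison chosen after the levels were seen, heated roots lay above control shoots by 0.46 (SE 0.18, edgeR adjusted p = 0.033). This call was lost with DESeq2 (adjusted p = 0.052) and without the first control shoot library (log2 difference 0.46, edgeR adjusted p = 0.068). It was also lost without the third control shoot library (log2 difference 0.39, edgeR adjusted p = 0.097). Without the first heated root library, which leaves 1 in that group, the log2 difference was 0.33. With scaling to total reads, the last step lost its call and the first gained one, as given above.

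**Figure D3:**
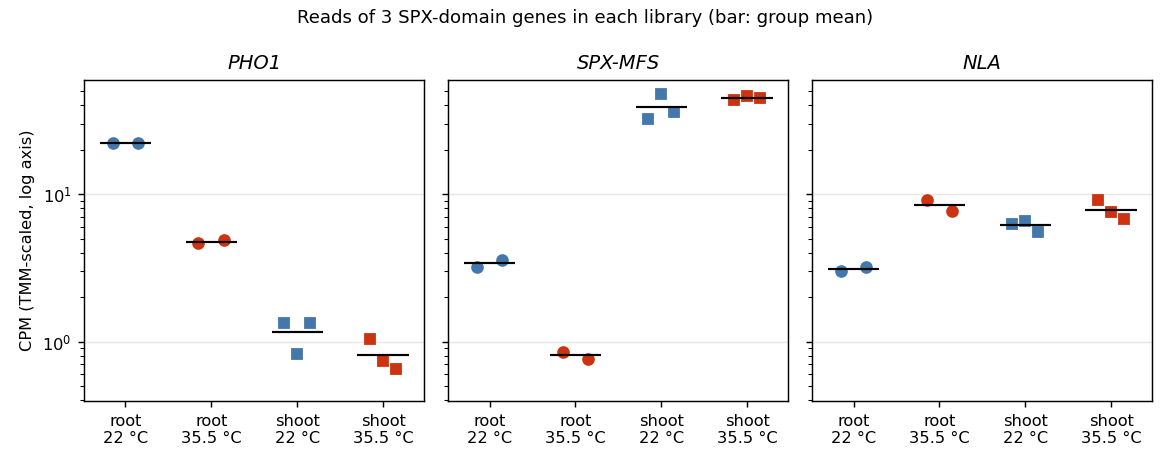
CPM after TMM scaling (log axis) of PHO1, SPX-MFS and NLA in each of the 10 libraries, by tissue (circles, roots, and squares, shoots) and temperature (blue, 22 °C, and red, 35.5 °C), with bars at the group means. PHO1 is highest in control roots (22.3), SPX-MFS in heated shoots (44.8), and NLA lies between 3.12 and 8.43 in every group mean.

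The ratio of the reads of a pair of the genes within a library does not depend on how the libraries are scaled, and its change with heat can be read without it. The ratios are of reads and are not corrected for gene length, so that only their change has a meaning. In roots, the NLA to PHO1 ratio was 0.134 and 0.146 without heat, against 1.97 and 1.58 with it. Its rise was 12.6-fold (log2 3.65). The NLA to SPX-MFS ratio was 0.940 and 0.898 without heat, against 10.7 and 10.1 with it, 11.3-fold more (log2 3.50). Neither pair overlapped between the groups. The exact two-sided permutation p was 0.333 for each, the smallest that 2 against 2 libraries allow, and 0.5 after adjustment over the 6 ratios.

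The SPX-MFS to PHO1 ratio showed no change beyond the spread in roots, where both genes fell. It was 0.143 and 0.162 without heat, against 0.184 and 0.156 with it, and the groups overlapped. The log2 difference was 0.15, with a 95% interval from counting error alone of -0.45 to 0.76 (exact permutation p = 0.667). In shoots, the NLA to PHO1 ratio was 4.64, 8 and 4.17 in control and 8.67, 10.3 and 10.4 in heated libraries, a log2 difference of 0.86 (exact permutation p = 0.1, the smallest that 3 against 3 libraries allow). The log2 differences of the other shoot ratios were 0.11 for NLA to SPX-MFS (exact permutation p = 0.6) and 0.75 for SPX-MFS to PHO1 (exact permutation p = 0.2), and their groups overlapped.

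**Figure D4:**
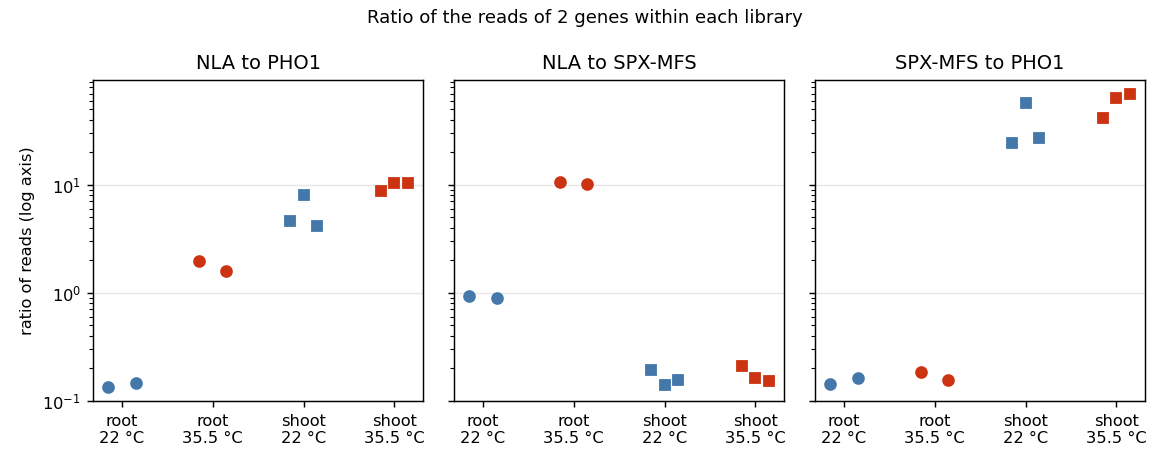
Ratio of the reads of a pair of genes within each library (log axis) for NLA to PHO1, NLA to SPX-MFS and SPX-MFS to PHO1, by tissue (circles, roots, and squares, shoots) and temperature (blue, 22 °C, and red, 35.5 °C). In roots the NLA to PHO1 and NLA to SPX-MFS ratios are higher in the heated than in the control libraries, and the SPX-MFS to PHO1 ratios overlap.

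The other 7 genes of the study's Pi list give the setting. They are the Pi transporters PHT1;1, PHT1;4 and PHT1;6, the transcription factors PHR1 and PHR2 that induce Pi starvation genes, the ubiquitin-conjugating enzyme PHO2 and the SUMO ligase SIZ1. In roots, 4 of the 7 fell, 0 rose and 3 did not pass the threshold, with a median log2 difference of -0.56 against -0.0035 over all genes, of which 22.4% were called lower and 21.5% higher. PHT1;1 fell by 3.07, PHT1;4 by 0.81, PHT1;6 by 0.76 and PHO2 by 0.56 on the log2 scale, with edgeR adjusted p of 8.6e-06, 0.0051, 0.018 and 0.0032. NLA was the only gene of the 10 on that list with a called rise in roots. PHR1, PHR2 and SIZ1 had log2 differences of 0.07, 0.04 and -0.19.

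In shoots, 5 of the 7 could be tested and PHO2 alone passed, lower by a log2 difference of -0.36 (edgeR adjusted p = 0.0088), where 38.5% of all shoot genes passed. PHT1;1, which had 0 reads in every shoot library, was left out of the count for the difference between roots and shoots. Of the other 6 genes, 1 passed in that difference, PHT1;6 at -0.99 (edgeR adjusted p = 0.039), a share near the 18.0% of all genes. The list was taken over with earlier results of these data known, and its counts are a description.

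The gene whose profile lay nearest to each SPX-domain gene was found over the 10 libraries, as the smallest root mean square difference of log2 CPM (1 added), each gene centred on its own mean, among 19335 genes. For PHO1 it was MLOC_2864, at a distance of 0.163 against a median of 1.43 over all genes. It had 285 and 286 reads in control roots, 32 and 35 after heat, and 1 read in all in the 6 shoot libraries. For SPX-MFS it was MLOC_63790, at 0.161 against a median of 2.05, with 30 and 36 reads in control roots, 1 read in each heated root library and 168 to 246 reads in the shoot libraries. For NLA it was MLOC_14791, at 0.107 against a median of 0.738, with 55 and 38 reads in control roots, 111 and 99 after heat and 31 to 51 in the shoot libraries. Among the other genes of the Pi list, PHT1;1 was the nearest to PHO1, at rank 1158 of the 19335 genes. PHT1;6 was the nearest to SPX-MFS at rank 1620, and PHR2 the nearest to NLA at rank 2156. The distances compare libraries that share tissue and depth, and they are given as a description. Because 1 was added, levels near 0 count little, and a small distance does not mean an equal fold change. The log2 difference of heat against control in roots was -4.42 for MLOC_63790, against -2.02 for SPX-MFS. Between control roots and control shoots it was 10.3 for MLOC_2864, against 4.24 for PHO1. MLOC_14791 lay closer to NLA in the root heat response, at 1.66 against 1.48.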

How the data were processed

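RNA selected with oligo(dT) from roots and shoots of control and heated barley was sequenced in 10 libraries, per the labels. The authors aligned reads to the barley genome of Ensembl Plants with TopHat2 and counted them per gene with HTSeq, and DESeq was run once per tissue. Their versions were not given in the sources used here. Deposited signal values are means of normalized counts per group. The authors' fold changes and p-values, also deposited, were not used.

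Each mean adds up reads divided by the size factor of their library and the number of libraries. Whole reads per library were recovered from it by lattice reduction. All 21408 and 21350 root means above 0 were split, as were 99.9% of shoot means in each condition. The 30 control and 28 heated shoot means that were not split, the lowest of them 47734 and 64646, carried 30.0% and 31.5% of the reads in genes and were left out of library sizes and tests. In shoots, 45 and 42 means had several splits. The 1 split whose libraries lay within a factor of 2 of each other, with 5 added to the normalized counts, was kept. This favours low spread, but none of these was a mean of the 3 genes. For each mean of the 3 genes, all combinations of whole reads were listed, and 1 matched. Lines that name no gene held 60.4% and 60.6% of normalized reads in control and heated roots, and 66.6% and 67.7% in shoots. These lines were left out. Reads with several alignments made up 2.82% and 4.04% in roots and 21.9% and 23.9% in shoots.

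Recovered reads were tested with edgeR 4.0.16 (quasi-likelihood, TMM, filterByExpr at its defaults, Benjamini-Hochberg over all genes tested, threshold 0.05) in R 4.3.3, in roots, in shoots and over all 10 libraries for differences between tissues. The count test was chosen because whole reads could be recovered. Standard errors are the log2 difference divided by the square root of F. At the low counts of PHO1 in shoots and of SPX-MFS in heated roots, several of them fell below counting error alone. The edgeR intervals of those values are too narrow. Other calculations used scipy 1.17.1, pandas 2.3.3 and numpy 2.4.6 in Python 3.11.15. The scripts were tested on simulated data. Alternatives were DESeq2 1.42.0, limma 3.58.1 on log2 values with 1 or 10 added, other scalings, no filter, a robust prior, and leaving out each library. The study states biological replicates.

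The text names the 3 genes, the other 7 Pi genes with an identifier, Hsp90.1 and the nearest profile to each of the 3 genes. The genes and lists were chosen with earlier results of these data known. Identifiers matched no entry of the barley gene table at hand, so positions and sequences were not analysed here.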

Additional observations from a re-analysis of the deposited data

Results flagged for a closer look

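The heat response of PHO1 differed between roots and shoots by -1.71 on the log2 scale in the edgeR test of the difference itself. That of SPX-MFS differed by -2.27, and that of NLA by 1.09. Each is called because the responses of the tissues differed in that test, and no explanation was tested.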

How the results depend on the processing

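Of 278 alternatives chosen at the start for 21 values, 231 had a test beside a tested value, and 224 of these kept direction and side of the threshold, 4 lost the call, 2 gained it and 1 changed sign. The other 47, mostly ratios within a library, had no such pair of tests, and 46 kept their sign and moved by less than the spread between libraries. The sign changes were in small differences without a call, NLA between heated tissues without the first heated root library (-0.015, range -0.015 to 0.23 over the libraries left out) and the NLA to SPX-MFS ratio in shoots without the first heated library (-0.026, range -0.026 to 0.24). Leaving out 1 library at a time, the PHO1 gap between root and shoot responses ran from -1.84 to -1.47 and that of NLA from 0.96 to 1.21, and the shoot response of SPX-MFS from 0.10 to 0.38 and of NLA from 0.22 to 0.44. The calls changed without the first heated shoot library (PHO1), the first heated root library (NLA) and the second control shoot library (SPX-MFS). Scaling to total reads in the genes tested ended the calls of the NLA gap (0.84) and of NLA between control tissues (-0.18). It gave NLA a call between heated tissues (0.65). The causes were not tested. Splits of calls under that scaling moved to 1832 higher and 4681 lower in shoots, from 3097 and 3190. No paired analysis was possible because the recovered libraries carry no replicate letter. The low depth of PHO1 in shoots, 5 to 14 reads per library, and 2 libraries per root group limit these values.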
